A study of Homo sapiens with 8 samples.

Results

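KIT, FLT3, CSF1R, PDGFRA, DDR2, MST1R and MET are receptor tyrosine kinases named here because members of this class are found out of place on the tumour cells of Hodgkin lymphoma. Every probe set annotated to exactly 1 of these 7 symbols was taken, which gave 16 probe sets of the 41091 with a single gene symbol, and 7 genes of 19775. KIT, FLT3, CSF1R and MST1R had 1 probe set each, and PDGFRA, DDR2 and MET had 4 each. The symbols were listed with earlier results of these data known, but no measured value entered the choice.

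The cells were Reh, an established line of precursor B-cell leukaemia, transfected and hybridised to Affymetrix U133 Plus 2.0 arrays. There were 4 groups of 2 arrays. The first received IRF5-4D together with IKKβ(EE), the second IRF5-4D alone, the third IKKβ(EE) alone, and the mock group control constructs. IRF5-4D is a constitutively active form of the transcription factor IRF5, and IKKβ(EE) a constitutively active form of the kinase that switches on NF-κB. All groups are therefore 1 cell line transfected with constructs, and the sources used here give neither the share of transfected cells nor the time to harvest. The 2 hybridisations of each group were biological duplicates per the study's design text and carry the numbers 1 and 3, whose meaning is not stated, so p-values measure the spread between such duplicates of 1 line.

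Receptor tyrosine kinases span the membrane once, bind a ligand outside the cell and phosphorylate tyrosines inside it, where adaptors dock and pass the signal to the RAS-ERK, PI3K and STAT pathways. KIT and FLT3 serve early blood progenitors, CSF1R serves monocytes and macrophages, PDGFRA and DDR2 serve mesenchymal cells, and MET and its relative MST1R serve epithelia. The Reed-Sternberg cells of Hodgkin lymphoma descend from B cells that have lost much of the B-cell programme, and they carry several receptors that B cells normally lack. CSF1R is a known case, read there from a repeat element upstream of its usual starts.

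Values are log2 expression values, on which a difference of 1 is a 2-fold change. Levels are compared between groups for 1 probe set at a time, not between probe sets. Over the arrays, lower quartiles were 3.67 to 3.73, medians 5.10 to 5.14 and upper quartiles 7.47 to 7.54, and the correlation between the arrays of a group was 0.994 to 0.996. Of 11 measured markers of precursor B cells, 10 were above the array median in every group, PAX5, CD79A and EBF1 among them, and 0 of the 11 passed the test in any comparison with mock. Of all genes, 2.92% passed with the combination, 0.298% with IRF5-4D and 0.470% with IKKβ(EE), at an adjusted p under 0.05. A count of 0 among 11 is near these shares. The IKBKB probe set 211027_s_at, for the gene that encodes IKKβ, read 11.11 and 9.33 with the combination, 4.68 and 4.60 with IRF5-4D, 12.57 and 10.98 with IKKβ(EE), and 4.80 and 4.06 in mock cells. The IRF5 probe set 205469_s_at read 8.0 and 7.82 with the combination, 7.15 and 7.25 with IRF5-4D, 6.95 and 7.13 with IKKβ(EE), and 6.93 and 7.06 in mock cells. This IKBKB probe set separated the arrays with IKKβ(EE) from those without it, and the other IKBKB probe sets did not, with differences of 0.14 (209341_s_at) and 0.028 (209342_s_at) for IKKβ(EE) over mock. For the combination over IKKβ(EE), 211027_s_at gave -1.56, which did not pass (limma, adjusted p = 0.354). On 211027_s_at, array 1 read above array 3 in each group. On 205469_s_at, IRF5 rose with the combination over mock by 0.92 (limma, adjusted p = 0.00586), but its difference of 0.20 for IRF5-4D over mock did not pass (limma, adjusted p = 0.975). On that probe set IRF5 was also higher with the combination than with IRF5-4D alone, by 0.71 (limma, adjusted p = 0.0379). In that comparison 205468_s_at gave -0.074 and 239412_at gave 0.23, and neither passed. For IRF5-4D over mock, the IRF5 probe set 205468_s_at gave 0.57 (unadjusted p = 0.00756, limma, adjusted p = 0.701), with both IRF5-4D arrays above both mock arrays, and 239412_at gave 0.051. The sources used here do not say whether these probe sets lie within the transfected constructs.

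KIT, the receptor for stem cell factor, was higher with IRF5-4D alone than in every other group, and it was the only gene of the 7 with a called change. KIT probe set 205051_s_at read 8.56 and 8.08 with the combination, 9.84 and 9.61 with IRF5-4D, 7.82 and 7.94 with IKKβ(EE), and 7.93 and 7.80 in mock cells. Both IRF5-4D arrays lay above all others, the combination arrays came next, and the IKKβ(EE) and mock arrays overlapped. The levels of all groups lay above the upper quartile of every array. The means were 8.32 ± 0.34 with the combination, 9.73 ± 0.16 with IRF5-4D, 7.88 ± 0.088 with IKKβ(EE) and 7.86 ± 0.094 in mock cells (SD, n = 2 each).

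With IRF5-4D, KIT rose over mock by 1.87 (SE 0.17, 95% interval 1.48 to 2.25), a 3.65-fold change (limma, adjusted p = 0.00192). It was 1 of 16 member probe sets called in that comparison, where 0.243% of all probe sets were called at an adjusted p under 0.05. Over IKKβ(EE), KIT rose with IRF5-4D by 1.85, a 3.60-fold change (limma, adjusted p = 0.00202), again 1 of 16 against 0.594% of all probe sets. With the combination, KIT fell relative to IRF5-4D alone by 1.41 (95% interval -1.79 to -1.03), a 2.66-fold change (limma, adjusted p = 0.0054), 1 of 16 against 1.03%. In bulk RNA, fewer cells that carry a transcript and less of it per cell cannot be told apart.

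The remaining KIT differences did not pass. For IKKβ(EE) over mock the difference was 0.017 (95% interval -0.36 to 0.40, limma, adjusted p = 0.996). The combination over mock gave 0.45 (95% interval 0.074 to 0.84, limma, adjusted p = 0.24), and the combination over IKKβ(EE) gave 0.44 (limma, adjusted p = 0.368). The interaction, which asks whether the effect of IRF5-4D differs with and without IKKβ(EE), was -1.43 (SE 0.24, unadjusted p = 0.00019, limma, adjusted p = 0.116). The adjusted p of the interaction lay between 0.0406, with the array number as a block, and 0.188 over the alternatives that kept all arrays. The comparisons share arrays, so the KIT calls do not stand apart from each other.

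Some of the KIT calls were lost when an IRF5-4D array was left out, in fits where that group held a single array. Without IRF5-4D array 1, the difference of IRF5-4D over mock was 1.75 (limma, adjusted p = 0.0555). The combination over IRF5-4D gave -1.30 without IRF5-4D array 1 (limma, adjusted p = 0.0806) and -1.53 without IRF5-4D array 3 (limma, adjusted p = 0.057). The direction was the same in each of these fits. KIT had a single probe set, so no second measurement of the gene was available, and its suffix _s_at marks a design that can bind more than 1 transcript.

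**Figure D1:**
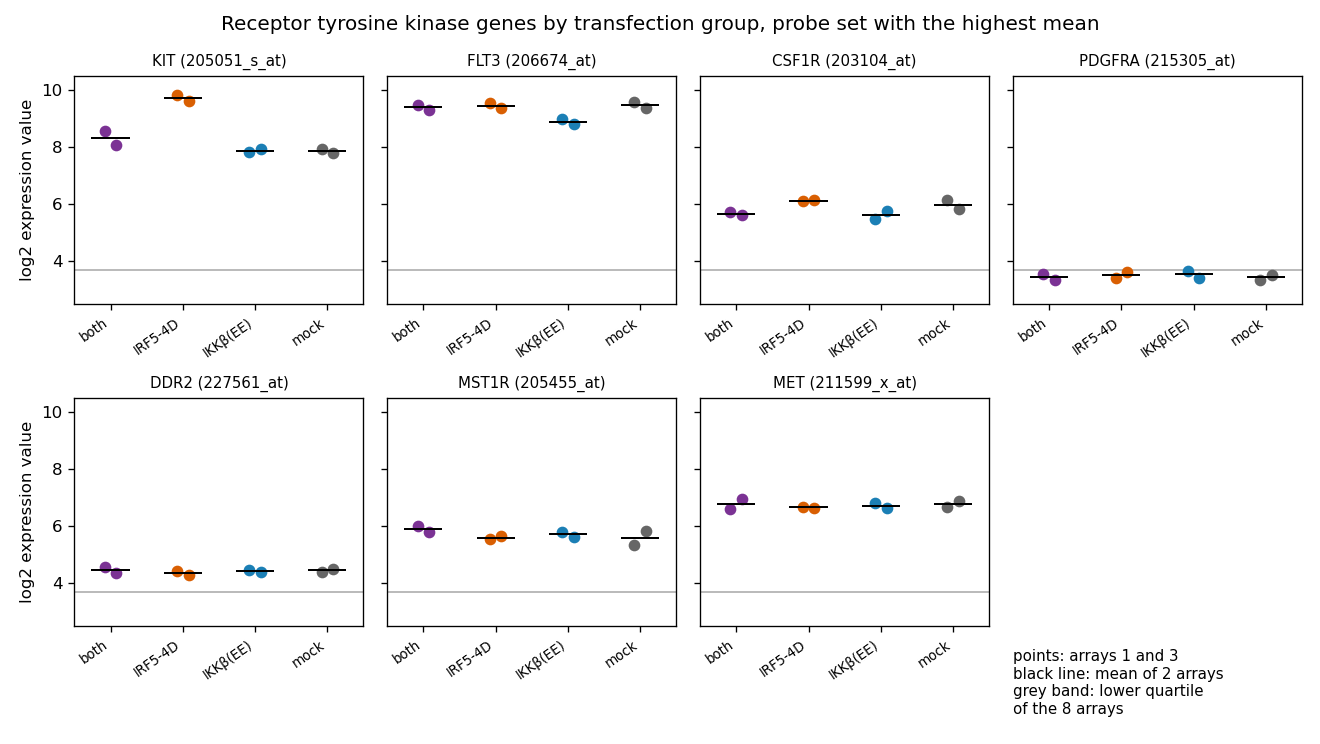
Log2 expression of each of the 7 receptors (y axis) by transfection group (x axis, where both means IRF5-4D with IKKβ(EE)), for the probe set of the highest mean of each gene. Points are arrays, black lines are means of 2 arrays, and the grey band is the lower quartile of the 8 arrays. The 2 IRF5-4D arrays of KIT, at 9.84 and 9.61, sit above its other arrays, and FLT3 is lower in the 2 IKKβ(EE) arrays than in the others.

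The promoter of KIT is shown because KIT is the receptor that changed, and those of FLT3 and CSF1R because their levels differed most among the other receptors by group. Each window runs from 250 bases before to 50 after a start, from RefSeq on build GRCh38.p14, and all 7 genes matched, with 11 windows. Capitals mark matches, on either strand, to 1 of 4 motifs: GAAA, any 2 bases and GAAA again for IRF factors, GGGA, any base and TTTCC for NF-κB, TGTGGT for RUNX factors and GAGGAA for ETS factors. Of 35116 promoters, 3.57% held the first, 0.558% the second, 13.1% the third and 27.9% the fourth. The KIT window (chr4:54657707-54658006, + strand) had no match and 74.3% GC with 38 CG dinucleotides, where medians over all promoters were 58.7% and 14. The FLT3 window (chr13:28100527-28100826, - strand) had 1 ETS match, and its 74.0% GC with 34 CG dinucleotides was close to that of KIT. The CSF1R window printed here (chr5:150086505-150086804, - strand) had 54.0% GC with 4 CG dinucleotides. It had 1 RUNX match and 3 ETS matches, of which 2 lie end to end. A second CSF1R start had none, and which start Reh cells use was not measured.
KIT: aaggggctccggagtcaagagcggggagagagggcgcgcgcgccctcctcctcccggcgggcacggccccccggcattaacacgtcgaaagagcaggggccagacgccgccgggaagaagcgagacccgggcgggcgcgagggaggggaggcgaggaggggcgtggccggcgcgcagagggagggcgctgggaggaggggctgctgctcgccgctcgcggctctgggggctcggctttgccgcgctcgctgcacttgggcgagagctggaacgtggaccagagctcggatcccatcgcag
FLT3: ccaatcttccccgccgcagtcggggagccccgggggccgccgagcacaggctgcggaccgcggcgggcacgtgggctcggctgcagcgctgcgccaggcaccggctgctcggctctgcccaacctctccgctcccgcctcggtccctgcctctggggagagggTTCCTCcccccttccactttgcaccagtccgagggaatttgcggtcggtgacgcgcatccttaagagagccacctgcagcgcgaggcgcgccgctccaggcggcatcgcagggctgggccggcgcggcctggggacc
CSF1R: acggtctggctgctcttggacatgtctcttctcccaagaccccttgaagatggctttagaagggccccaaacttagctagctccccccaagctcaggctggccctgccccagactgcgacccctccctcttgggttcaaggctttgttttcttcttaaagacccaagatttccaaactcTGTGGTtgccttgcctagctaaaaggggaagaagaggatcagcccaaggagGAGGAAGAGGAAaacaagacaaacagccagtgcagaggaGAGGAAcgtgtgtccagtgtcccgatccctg
No window of the 7 genes had an IRF or NF-κB match, and the windows of PDGFRA and DDR2, like that of KIT, had no match at all. A match is a run of letters, not a measured binding site, and its absence covers only this window.

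FLT3, the receptor for the progenitor growth factor FLT3 ligand, had its lowest values in cells with IKKβ(EE) alone. FLT3 probe set 206674_at read 9.49 and 9.32 with the combination, 9.54 and 9.38 with IRF5-4D, 8.98 and 8.82 with IKKβ(EE), and 9.59 and 9.39 in mock cells. Both IKKβ(EE) arrays lay below the other 6 arrays, and the other 3 groups overlapped. All values were above the upper quartile of every array. The difference of IKKβ(EE) over mock was -0.59 (SE 0.14, unadjusted p = 0.00177), which did not pass over all probe sets (limma, adjusted p = 0.199), and 0 of 16 member probe sets were called where 0.370% of all were. The combination over IKKβ(EE) gave 0.50 (limma, adjusted p = 0.145), 0 of 16 against 1.38%, and IRF5-4D over IKKβ(EE) gave 0.56 (limma, adjusted p = 0.203). The combination over mock gave -0.083 (95% interval -0.39 to 0.22), and the interaction was 0.53 (limma, adjusted p = 0.667), in a comparison that called 0 of 16 members and 0.0803% of all probe sets.

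CSF1R, the receptor for the macrophage growth factors CSF1 and IL34, was not higher than in mock cells in any other group at the threshold. CSF1R probe set 203104_at read 5.72 and 5.62 with the combination, 6.11 and 6.15 with IRF5-4D, 5.49 and 5.75 with IKKβ(EE), and 6.15 and 5.83 in mock cells. The 4 arrays with IKKβ(EE), alone or in combination, lay below the 4 arrays without it. All values were above the array medians and below the upper quartiles. The combination over mock gave -0.32 (95% interval -0.65 to 0.011, limma, adjusted p = 0.349), 0 of 16 members against 2.55% of all probe sets called. IRF5-4D over mock gave 0.14 (95% interval -0.19 to 0.47), and IKKβ(EE) over mock -0.37 (limma, adjusted p = 0.668). The widest gaps were those between IRF5-4D and the groups with IKKβ(EE), at -0.46 for the combination over IRF5-4D (limma, adjusted p = 0.227) and 0.51 for IRF5-4D over IKKβ(EE) (limma, adjusted p = 0.348).

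PDGFRA, the receptor for platelet-derived growth factors, was read at the bottom of the array. All 4 PDGFRA probe sets lay below the lower quartile of every array in all 8 arrays, and a level there is not shown to differ from background. PDGFRA probe set 215305_at read 3.54 and 3.33 with the combination, 3.41 and 3.62 with IRF5-4D, 3.64 and 3.43 with IKKβ(EE), and 3.36 and 3.52 in mock cells. The 4 groups overlapped. The other PDGFRA probe sets ran from 3.11 to 3.65 (1554828_at), from 2.75 to 3.30 (203131_at) and from 2.68 to 3.22 (211533_at). The differences with an unadjusted p under 0.05 were 0.34 for 1554828_at, combination over IRF5-4D (limma, adjusted p = 0.339), and -0.36 for 203131_at, IRF5-4D over IKKβ(EE) (limma, adjusted p = 0.657).

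DDR2, a receptor for fibrillar collagen, was likewise low, and all 4 of its probe sets lay below the median of every array. DDR2 probe set 227561_at read 4.58 and 4.36 with the combination, 4.42 and 4.31 with IRF5-4D, 4.46 and 4.41 with IKKβ(EE), and 4.41 and 4.51 in mock cells. The groups overlapped. The other DDR2 probe sets ran from 4.13 to 4.36 (205168_at), from 3.59 to 4.05 (225442_at) and from 3.54 to 3.78 (235631_at), and none of the 4 passed the test in any of the 7 comparisons.

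MST1R, the receptor for macrophage-stimulating protein, read 6.02 and 5.81 with the combination, 5.54 and 5.67 with IRF5-4D, 5.82 and 5.62 with IKKβ(EE), and 5.33 and 5.82 in mock cells (probe set 205455_at). The mock arrays spanned most of this range, so the groups overlapped. The combination over mock gave 0.34 (95% interval -0.050 to 0.73, limma, adjusted p = 0.402), so a rise of up to 0.73 lies within the interval.

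MET, the receptor for hepatocyte growth factor, gave different pictures by probe set. MET probe set 211599_x_at, above the median of every array, read 6.61 and 6.97 with the combination, 6.69 and 6.65 with IRF5-4D, 6.82 and 6.63 with IKKβ(EE), and 6.70 and 6.88 in mock cells. The groups overlapped. The suffix _x_at marks probes that may bind unrelated transcripts. The other MET probe sets ran from 3.39 to 3.64 (203510_at), from 3.88 to 4.23 (213807_x_at) and from 3.35 to 3.73 (213816_s_at), and none of the 4 was called. MET probe set 203510_at lay below the lower quartile of every array, where a level is not shown to differ from background. Probe set 213816_s_at was above the lower quartiles only in mock array 1.

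Across the 15 probe sets other than KIT, the differences from mock ran from -0.32 to 0.34 with the combination, from -0.26 to 0.14 with IRF5-4D and from -0.59 to 0.27 with IKKβ(EE). The widest bound of any 95% interval was 1.66-fold with the combination, 1.45-fold with IRF5-4D and 1.86-fold with IKKβ(EE). All PDGFRA probe sets and MET 203510_at lay below every lower quartile, so for them these bounds do not limit a change in the transcript. Before adjustment, a p under 0.05 was reached by 1 of the 16 with the combination over mock, 1 with IRF5-4D over mock and 2 with IKKβ(EE) over mock, where 15.1%, 5.16% and 6.78% of all probe sets did so.

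**Figure D2:**
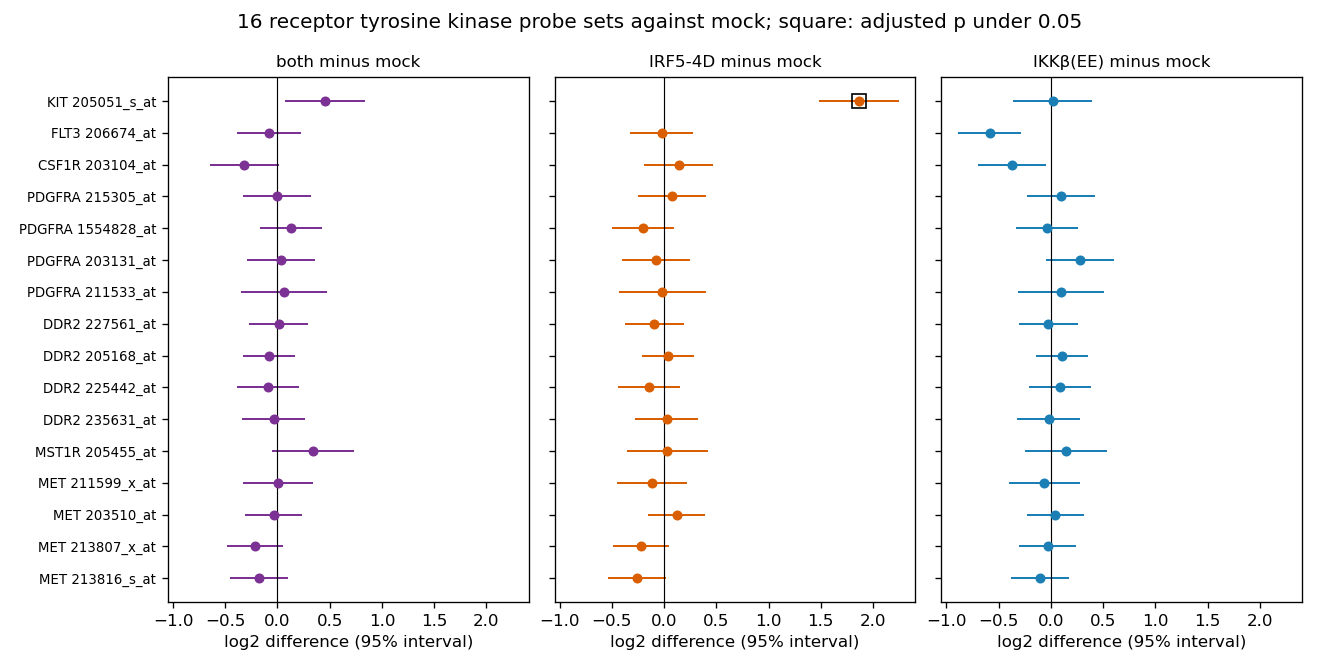
Log2 difference from mock (x axis) of all 16 probe sets (y axis) with the combination, IRF5-4D and IKKβ(EE), each with its 95% interval, and a square where the adjusted p was under 0.05. KIT with IRF5-4D, at 1.87, lies apart, and the other 15 probe sets stay between -0.59 and 0.34 in the 3 comparisons.

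By the pattern over the 8 arrays, the genes most like KIT were GZMA (Pearson r = 0.971), FCGR2B (0.956) and SLITRK6 (0.955), out of 562 genes whose group means spanned at least 1 log2 unit. GZMA is a granzyme of cytotoxic lymphocytes, FCGR2B is the inhibitory Fc receptor of B cells, and SLITRK6 is a membrane protein of neural tissue. GZMA read 4.61 and 4.19 with the combination, 6.42 and 5.59 with IRF5-4D, 3.71 and 4.22 with IKKβ(EE), and 4.32 and 3.74 in mock cells. Its IRF5-4D arrays were above all others. The differences of IRF5-4D over mock were 1.97 for GZMA, 1.05 for FCGR2B and 1.39 for SLITRK6. The choice by likeness to KIT over the same 8 arrays favours genes that are high with IRF5-4D, so these values are a description with no test.

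**Figure D3:**
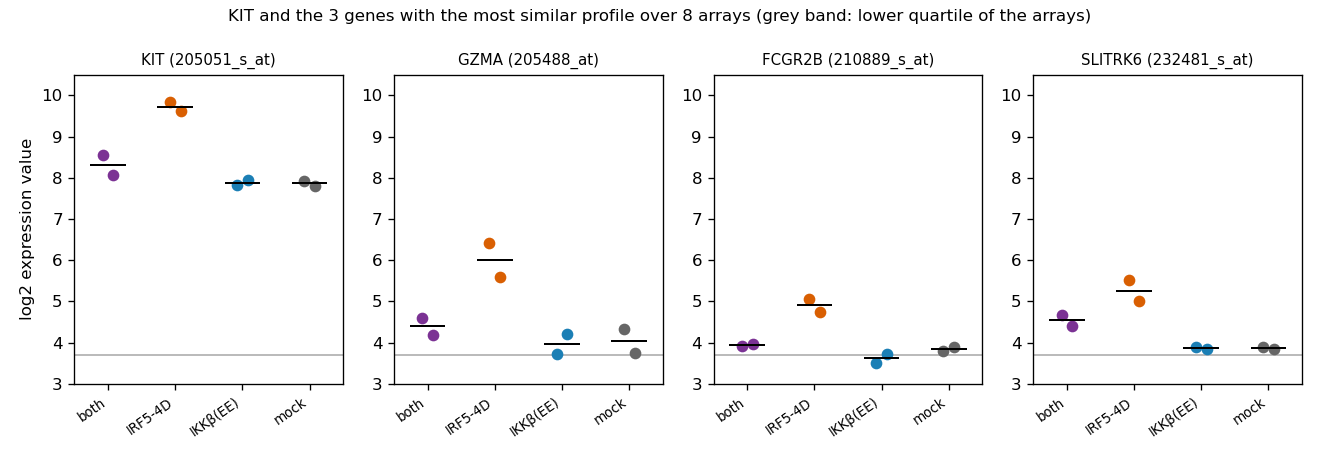
Log2 expression (y axis) by transfection group (x axis, where both means IRF5-4D with IKKβ(EE)) for KIT and the 3 genes most correlated with it over 8 arrays. Points are arrays, black lines are means of 2 arrays and the grey band is the lower quartile of the arrays; the IRF5-4D arrays are the highest in each panel.

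The ligands of the 7 receptors did not move at the threshold. Of 14 listed and measured, 0 rose and 0 fell in any comparison with mock, where 2.92% of all genes were called with the combination, 0.298% with IRF5-4D and 0.470% with IKKβ(EE). The list's median difference was 0.052 with the combination, -0.11 with IRF5-4D and 0.099 with IKKβ(EE), where the medians of all genes were -0.027, -0.016 and -0.025. CSF1, the ligand of CSF1R, gave 0.47 (limma, adjusted p = 0.116) with the combination, and KITLG, the ligand of KIT, gave 0.31 (limma, adjusted p = 0.932) with IRF5-4D. All KITLG values, from 3.18 to 3.59, lay below the lower quartile of every array, where a level is not shown to differ from background. PDGFB gave 0.44 with the combination (limma, adjusted p = 0.112), and COL1A2 gave -0.33 with IRF5-4D (limma, adjusted p = 0.901). With IKKβ(EE), PDGFA gave 0.58 and PDGFB 0.33, and neither passed.

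Of 9 genes for ligand activation and receptor shedding, 2 rose with the combination, where 2.92% of all genes were called. Of the 9, 1 was called with IRF5-4D, against 0.298% of all genes, and 1 with IKKβ(EE), against 0.470%. PLAU, the urokinase that cleaves plasminogen, read 9.76 and 9.03 with the combination, 6.84 and 6.87 with IRF5-4D, 7.52 and 6.94 with IKKβ(EE), and 4.88 and 4.40 in mock cells. Every array with IRF5-4D, IKKβ(EE) or both lay above both mock arrays, and the combination arrays above all others. PLAU rose over mock by 4.76 with the combination (limma, adjusted p = 2.86e-05), by 2.22 with IRF5-4D (limma, adjusted p = 0.0108) and by 2.59 with IKKβ(EE) (limma, adjusted p = 0.00412). PLAT, the tissue plasminogen activator, read 7.47 and 6.32 with the combination, 4.25 and 3.85 with IRF5-4D, 2.92 and 2.96 with IKKβ(EE), and 2.84 and 2.77 in mock cells. It rose with the combination by 4.09 (limma, adjusted p = 0.000163), but the mock values lie below the lower quartile, where a level is not shown to differ from background, so the size is not an exact fold. The combination calls of PLAU and PLAT held whichever of the 8 arrays was left out. The PLAU call was lost without either IRF5-4D array or mock array 3 for IRF5-4D over mock, and without IKKβ(EE) array 1 for IKKβ(EE) over mock.

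Of 51 other receptor tyrosine kinases listed, 48 were measured and 0 were called against mock in any group. Among all genes, 2.92% were called with the combination, 0.298% with IRF5-4D and 0.470% with IKKβ(EE), so few calls would be expected in this list. With the combination, FLT1, a receptor for vascular endothelial growth factor, gave 1.23 (limma, adjusted p = 0.162) and EPHA7, an ephrin receptor, gave -0.87 (limma, adjusted p = 0.318). The list's medians were -0.036 with the combination, -0.075 with IRF5-4D and -0.033 with IKKβ(EE).

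With the combination, 2.92% of all genes were called, against 0.298% with IRF5-4D and 0.470% with IKKβ(EE), and the counts of called signalling genes are read against these shares. Among 26 measured adaptors and effectors of 33 listed, 4 rose and 1 fell with the combination, and 0 were called with IRF5-4D or IKKβ(EE). LYN, a kinase of the SRC family, rose by 2.01 (limma, adjusted p = 0.000484) and SRC by 1.06 (limma, adjusted p = 0.00972). SOS1, the exchange factor that loads RAS, rose by 0.73 (limma, adjusted p = 0.0344), and YES1, another SRC-family kinase, fell by 0.93 (limma, adjusted p = 0.0419). STAT3, a transcription factor that these receptors activate, was named after its value was seen, and it rose by 0.58 (limma, adjusted p = 0.0334). LYN kept its call with each array left out in turn, and SRC lost it without mock array 1. SOS1 lost it without any single array of the combination, IRF5-4D or mock, YES1 in all 8 such fits but that without combination array 3, and STAT3 in all 8. The count of 5 was 2 or 3 when any single array other than combination array 3 was left out. The list's median was 0.095 with the combination.

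LYN read 10.62 and 10.02 with the combination, 8.76 and 8.72 with IRF5-4D, 8.49 and 8.32 with IKKβ(EE), and 8.22 and 8.39 in mock cells. The combination arrays lay above all others.

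Of 23 measured negative regulators of 27 listed, SOCS1, a suppressor of cytokine signalling, was the only gene called against mock. SOCS1 read 7.70 and 6.74 with the combination, 6.27 and 6.11 with IRF5-4D, 6.99 and 6.82 with IKKβ(EE), and 5.0 and 4.80 in mock cells. It rose over mock by 2.32 with the combination (limma, adjusted p = 0.00156) and by 2.01 with IKKβ(EE) (limma, adjusted p = 0.0141), and its difference of 1.29 with IRF5-4D did not pass (limma, adjusted p = 0.18). The IKKβ(EE) call was lost without any single array of IKKβ(EE), IRF5-4D or mock.

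Among 17 measured genes of ERK output of 18 listed, 3 rose and 1 fell with the combination, and 0 were called with IRF5-4D or IKKβ(EE). DUSP4, a phosphatase that acts on ERK, read 9.70 and 8.77 with the combination, 6.22 and 6.36 with IRF5-4D, 4.93 and 5.18 with IKKβ(EE), and 5.32 and 5.03 in mock cells. It rose by 4.06 (limma, adjusted p = 6.67e-05). DUSP5, a related phosphatase, rose by 2.16 (limma, adjusted p = 0.0234), and CCND1, a cyclin of the early cell cycle, by 1.67 (limma, adjusted p = 0.011). ETV5, an ETS transcription factor, fell by 0.93 (limma, adjusted p = 0.00679), so the called members did not share a direction. DUSP5 lost its call without any single IRF5-4D or mock array, and CCND1 without either mock array. The list's median was 0.17 with the combination, where that of all genes was -0.027.

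Of 22 measured transcription regulators of blood cells of 24 listed, 2 rose with the combination, where 2.92% of all genes were called. In the other groups 0 were called, against 0.298% of all genes with IRF5-4D and 0.470% with IKKβ(EE). IRF4, a regulator of plasma cells and a known marker of Reed-Sternberg cells, read 9.03 and 7.94 with the combination, 6.37 and 6.12 with IRF5-4D, 6.62 and 6.42 with IKKβ(EE), and 6.02 and 5.32 in mock cells. It rose by 2.81 (limma, adjusted p = 0.00206). LMO2, a partner of early blood transcription factors, rose by 0.92 (limma, adjusted p = 0.0176), and it lost the call without mock array 1 or combination array 3.

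**Figure D4:**
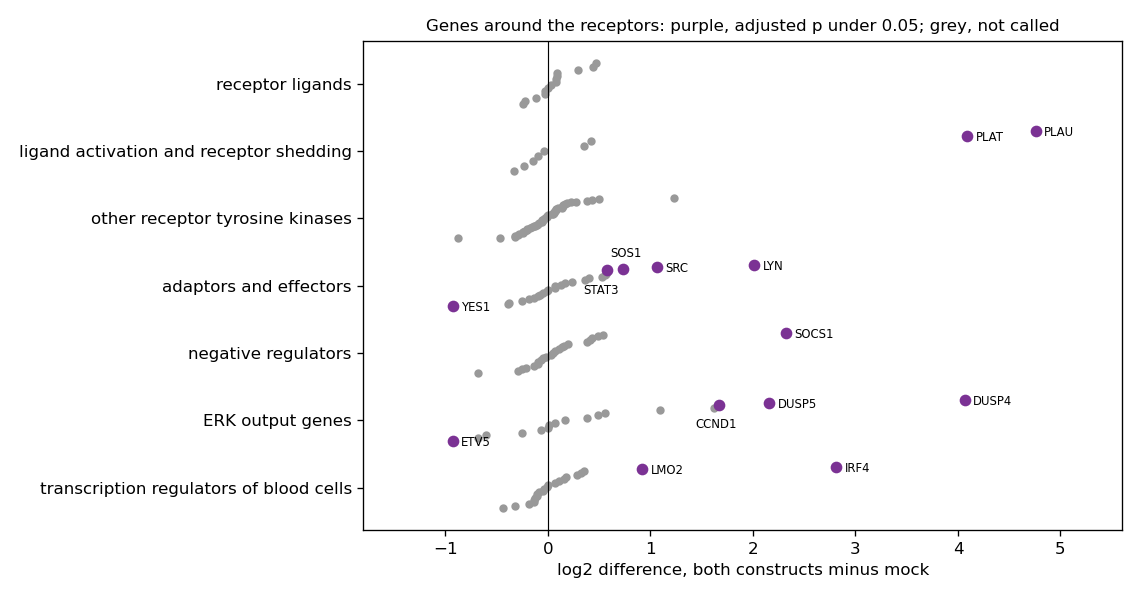
Log2 difference from mock (x axis) of each measured gene of the 7 related lists (y axis) with the combination. Purple labelled points had an adjusted p under 0.05 and grey points did not; PLAU, PLAT and DUSP4 lie beyond 4, and the ligands and other receptors have no called gene.

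Markers of mast and myeloid cells, in which KIT and CSF1R normally work, gave no called change. Of 5 measured mast cell markers, 0 were called, CPA3 and FCER1A were below the lower quartile and TPSAB1 above the median in every group, and the summed log2 level was 20.8 to 21.1 with the combination, 21.4 to 21.6 with IRF5-4D, 21.2 to 21.9 with IKKβ(EE) and 21.2 to 21.8 in mock cells. Of 10 measured myeloid markers and 8 stromal markers, 0 were called in any comparison with mock. The share of all genes called was 2.92% with the combination, 0.298% with IRF5-4D and 0.470% with IKKβ(EE). A count of 0 in lists this short is near those shares, so it is not a result about these markers.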

How the data were processed

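The authors deposited log2 expression levels of each probe set on 8 arrays. Per the submitters' processing notes the authors made them with RMA (background correction, quantile normalization, 1 summary per probe set); its version and the chip definition were not given in the sources used here. No image or probe intensity was used, so the number of arrays limits the precision.

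Of 54675 probe sets, 62 controls and 13522 others without exactly 1 symbol in the platform annotation were left out, and 41091 were tested with no filter on level. Entrez identifiers of 41037 were found in RefSeq, and 0 symbols changed. Groups came from the sample labels. A model of 4 group means was fitted over all arrays with limma 3.58.1 in R 4.3.3 (4 residual and 5.24 prior degrees of freedom), with Benjamini-Hochberg adjustment over all probe sets of a comparison, and a call at an adjusted p under 0.05. Single-gene tests are two-sided. In the gene lists a gene was represented by its probe set of the highest mean.

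The members and lists were chosen with earlier results of these data known. The genes named were all members, the transfected genes, up to 4 called genes of each list with the largest change over mock (or the 2 largest where none was called), and the 3 genes most correlated with KIT. The fit was tested on simulated data. Alternatives changed the normalization, the summary per gene, filters, the spread estimate and the arrays left out.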

Additional observations from a re-analysis of the deposited data

Results flagged for a closer look

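The effect of IRF5-4D on DUSP4 differed with and without IKKβ(EE), by a test of the difference itself. The interaction for probe set 204015_s_at was 3.07 (SE 0.37, limma, adjusted p = 0.0276), from values of 9.70 and 8.77 with the combination, 6.22 and 6.36 with IRF5-4D, 4.93 and 5.18 with IKKβ(EE), and 5.32 and 5.03 in mock cells. Over the 8 fits that each left out 1 array it ran from 2.60 to 3.54, and it passed only in the 2 fits without a combination array. No group held enough arrays for a test of single outlying arrays.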

How the results depend on the processing

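Over the 7 comparisons and 22 alternatives, the count of called members stayed the same 146 times and moved 7 times (a fit of only the compared groups does not exist for the interaction, which needs all 4). Leaving out probe sets whose names end in _x_at or _s_at removes the only KIT probe set, so by construction the count became 0 for IRF5-4D over mock, for the combination over IRF5-4D and for IRF5-4D over IKKβ(EE). With the replicate block the interaction called 1 member, KIT. With 1 array left out in turn, the count ran from 0 to 1 for IRF5-4D over mock and for the combination over IRF5-4D; a lone array of a group is then assumed to vary like the other groups. Whether the array numbers pair the samples is not settled: the deviations of same-numbered arrays correlated between -0.0593 and 0.327 over the 6 pairs of groups, above 0.1 in 4 of them, and no label says what a number marks. The count of called adaptors with the combination ran from 1 to 7 over the alternatives and that of ERK output genes from 2 to 6, against 5 and 4; with the replicate block 2 other receptor tyrosine kinases were called with the combination, against 0. Of the negative regulators and of the ligand activation genes, between 0 and 2 were called in any comparison with mock. No difference of KIT, FLT3 or CSF1R with an unadjusted p under 0.05 changed sign under any alternative. Levels near the lower quartile, as for PDGFRA, leave changes there unmeasured.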

Other observations

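CDH1, the E-cadherin of epithelial junctions, was the only 1 of 7 epithelial markers called with the combination, where 2.92% of all genes were called. CDH1 read 9.02 and 7.39 with the combination, 5.32 and 4.62 with IRF5-4D, 3.31 and 3.52 with IKKβ(EE), and 3.19 and 3.31 in mock cells, and the combination arrays lay above all others. It rose with the combination by 4.96 (limma, adjusted p = 0.000356), though the mock values lie below the lower quartile, so the size is not an exact fold, and its difference of 1.72 with IRF5-4D did not pass (limma, adjusted p = 0.475). Of the other epithelial markers, EPCAM was below the lower quartile in every group, and KRT8, KRT18 and CLDN4 were above the median in every group. CLDN4, a tight junction protein, gave 1.88 with the combination (limma, adjusted p = 0.0866) and 1.44 with IRF5-4D (limma, adjusted p = 0.875), and neither passed. The summed log2 level of the 7 epithelial markers was 36.8 to 39.9 with the combination, 33.7 to 35.2 with IRF5-4D, 31.8 to 32.0 with IKKβ(EE) and 31.7 to 32.0 in mock cells. This sum includes CDH1 and CLDN4 and does not show a rise of the whole list. The list's differences with the combination ran from -0.34 to 4.96, with a median of 0.16. NKG7, a granule protein of cytotoxic lymphocytes, rose with the combination by 1.34 (limma, adjusted p = 0.00545). It was the only 1 of 8 T and NK markers called. The differences of that list ran from -0.79 to 1.34 with the combination, with a median of -0.063, so the other markers did not share the rise. The CDH1 and NKG7 calls with the combination held whichever of the 8 arrays was left out.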
